A study of Condylura cristata and Mus musculus with 12 samples.

Results

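The collagen genes of the trigeminal ganglion (TG) and the dorsal root ganglia (DRG) were examined in star-nosed moles (Condylura cristata) and mice. A gene was included if its symbol consisted of Col, a number, the letter a and a number, which gave 45 of 33773 genes in the mole count table and 42 of 26125 in the mouse table. All 42 mouse symbols were also in the mole table, and Col21a1, Col29a1 and Col6a5 were listed for the mole alone. Of the 45 mole symbols, 38 are also listed in the RefSeq annotation of the mole genome assembly ConCri1.0. Not listed there are Col4a1, Col4a2, Col5a1, Col6a4, Col9a3, Col20a1 and Col29a1. Col29a1 is an older name of Col6a5, so that gene has 2 rows in the mole table. Genes were taken by symbol alone, whatever their counts.

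Star-nosed moles were adult wild males and mice were adult C57BL/6 females, with no other treatment given in the labels. Both ganglia hold the cell bodies of somatosensory neurons: those of the TG supply the face, including the nasal star of the mole, and those of the DRG supply the body. Ganglia were compared within each species, with 3 libraries per ganglion in the mole and 2 per ganglion in the mouse, and 2 further mouse samples were not analysed here. Each library came from a single animal except for 1 mole DRG sample, which was pooled. P-values therefore measure the spread between these few animals and libraries. Whole ganglia were homogenized, so a transcript can come from neurons, glia, vessels, the capsule or tissue attached at dissection, and fewer cells of a type and less RNA per cell cannot be told apart.

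Collagens are secreted proteins in which 3 chains wind into a helix, and each gene encodes 1 chain. Fibrillar collagens (types I, II, III, V and XI) assemble into the fibres that give connective tissue its tensile strength, and in a ganglion they lie in the capsule and between nerve fibres. Type IV collagen forms the mesh of basement membranes, the sheets that surround blood vessels, Schwann cells and the satellite glia around each neuron. The remaining types bind to fibres, anchor epithelia, form beaded microfilaments (type VI), or span cell membranes.

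Some libraries stood apart before any collagen was considered. Over all genes, the rank correlation of mole TG 1 with the other TG libraries was 0.855 and 0.866, while TG 2 and 3 correlated at 0.974. For mole DRG 2 it was 0.900 and 0.919 with its group, where the other pair had 0.970. The Genomic Sample Prep kit was used for mole TG 1 and DRG 1, and the TruSeq kit for all others. Total counts were 8409670 to 11140894 in the mole TG, 9706906 to 92323879 in the mole DRG, and 90548941 to 147076817 in the mouse. Markers of sensory neurons summed to 22646 to 46326 CPM (reads of a gene scaled to a fixed library total, with TMM factors) in the mole libraries and 19715 to 24109 CPM in the mouse libraries, and all 16 were detected in both species.

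The mouse labels ran against the genes of body position. Hox genes, which mark positions along the trunk and are silent in the head, were higher in the mole DRG for 15 of 16 listed, with sums of 23.5 to 30.7 CPM in the TG and 240 to 269 CPM in the DRG. In the mouse, 15 of 16 were higher in the libraries labelled TG, with sums of 120 to 131 CPM, against 7.44 to 8.47 CPM in those labelled DRG. Hoxd1, outside that list and added after its values were seen, was at 22.8 and 21.2 CPM in mouse labelled TG and 21.3 and 44.7 CPM in labelled DRG, which overlapped (log2 fold change -0.58, adjusted p = 0.456), and was higher in the mole DRG (-2.11, adjusted p = 0.0113). Mouse groups are therefore called labelled TG and labelled DRG, and every mouse direction holds by label only.

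Collagens took a small part of each library. They held 0.272% to 0.281% of counts in the mole TG libraries and 0.197% to 0.256% in the mole DRG libraries, so the groups did not overlap. In the mouse the share was 0.164% to 0.180% in libraries labelled TG and 0.193% to 0.217% in those labelled DRG, again without overlap but in the other direction. Every collagen in a table had counts in every library of that species, and 30 of 45 averaged at least 10 CPM in the mole TG and 25 of 45 in the mole DRG.

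The make-up of that share also differed. Fibrillar collagens held 30.3% to 34.5% of collagen CPM in the mole TG and 37.9% to 54.5% in the mole DRG, with the lowest DRG value in DRG 3. Type IV chains held 11.7% to 14.8% in the mole TG and 5.88% to 7.68% in the mole DRG. In the mouse the fibrillar share was 45.5% to 46.8% in all 4 libraries, and type IV held 12.4% to 13.1% in libraries labelled TG and 16.4% to 18.8% in those labelled DRG. Type IV was thus the class whose share separated the ganglia in both species, with opposite directions by label.

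To compare levels between genes, mean CPM was divided by the length in kilobases of the mouse transcript of the same symbol. Mole reads were aligned to transcripts of other species. How far this changes the order of mole genes, or ratios of their reads, was not tested. Col6a2, a chain of the beaded filaments of type VI collagen, had the highest level in the mole TG at 99.6 CPM per kb. Col5a3, the chain of type V collagen that is found in nerve, was next at 62.0, ahead of Col6a1 at 54.9, Col18a1 at 49.1 and Col4a2 at 39.1 CPM per kb. In the mole DRG Col5a3 ranked first at 75.3 and Col6a2 came next at 60.7, followed by Col1a2 at 33.9 CPM per kb.

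Mouse ganglia had another order. Col1a2, a chain of type I collagen, was first in both groups, at 36.6 CPM per kb in labelled TG and 53.3 in labelled DRG, and Col5a3 was next at 32.5 and 44.4 CPM per kb. Col3a1 ranked after these in labelled TG at 25.0 CPM per kb and Col4a1 in labelled DRG at 30.3 CPM per kb. Col5a3 was thus first or next to first in all 4 groups. Levels were not compared between species, since mole reads were aligned to transcripts of other species.

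The first comparison asked how collagen expression differs between the mole TG, which serves the star, and the mole DRG. Higher in the TG were 3 type IV chains (Col4a1, Col4a2 and Col4a6), Col18a1, and 4 genes of other types (Col9a1, Col9a2, Col8a2 and Col16a1). No fibrillar collagen passed the test, and Col12a1 and Col6a5 were higher in the DRG. Counts were fitted over all 18078 genes that passed a filter on low counts, and a gene was called at an adjusted p under 0.05. The test called 8 of 43 collagens (18.6%) toward the TG and 2 (4.65%) toward the DRG, against 10.5% and 12.9% of all genes tested and 23.5% in both directions together. The median log2 fold change (TG over DRG) was 0.72 over the 43 collagens and 0.11 over all genes.

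By class, 3 of 6 type IV genes were higher in the TG, with a median log2 fold change of 0.95. Of the 28 tested genes that are neither fibrillar nor type IV, the TG had the higher level of 5 and the DRG of 2, with a median of 0.74. The 9 fibrillar genes had a median of -0.28. At the level of single libraries, all 3 TG libraries lay above all 3 DRG libraries for 13 of 43 collagens, against 21.7% of all genes, and below them for 3, against 22.5%. The 2 genes left untested, Col6a4 and Col29a1, were under 1.31 CPM in every mole library.

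**Figure D1:**
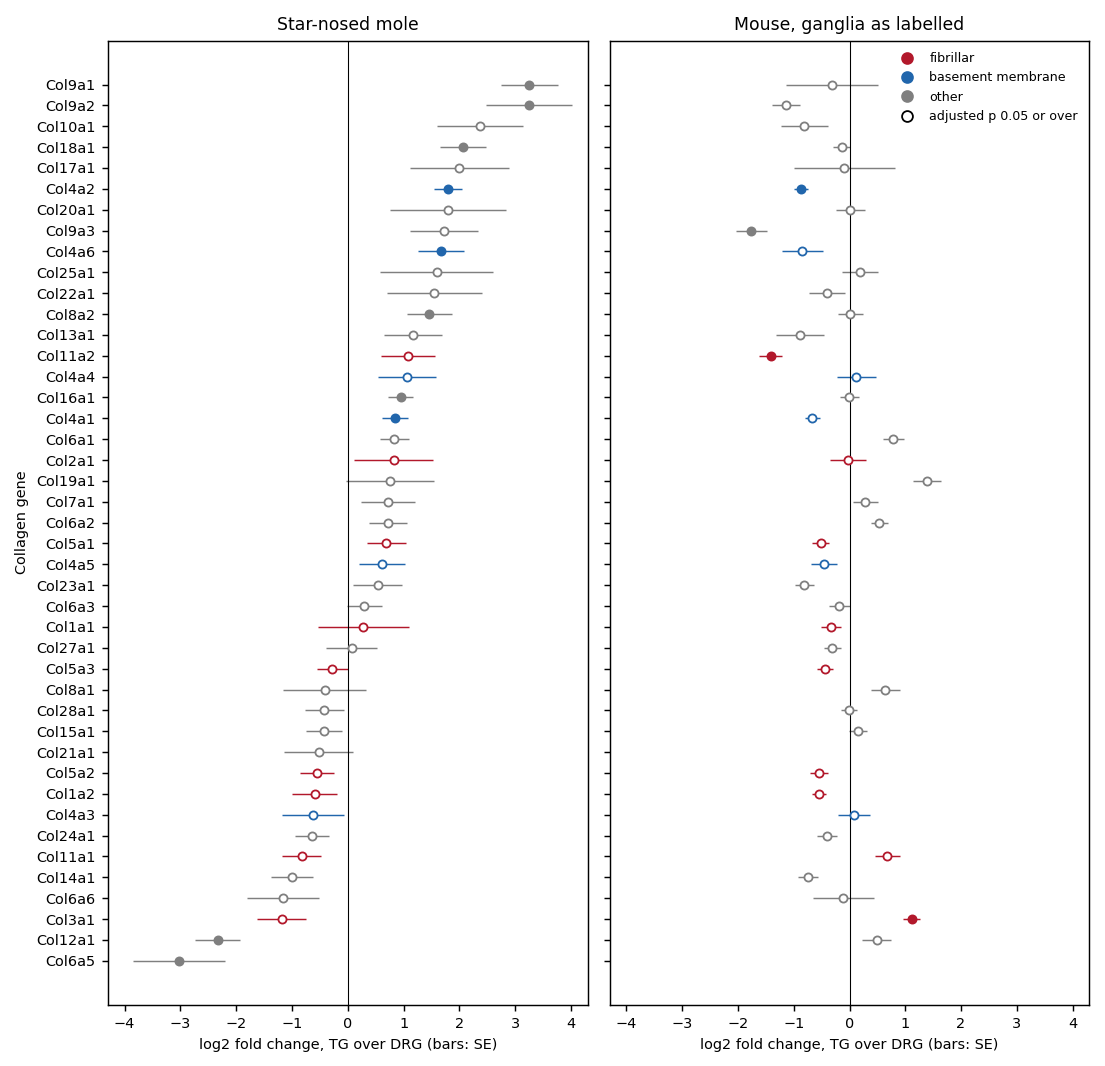
Log2 fold change of each collagen tested in the mole, TG over DRG (horizontal axis, bars are 1 standard error), with the same gene in the mouse, labelled TG over labelled DRG, on the right. Filled points have an adjusted p under 0.05 (10 in the mole, 4 in the mouse), colours mark the class, and a gene missing on the right is not in the mouse table.

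These counts depended on GC content and on single libraries. After an adjustment for gene GC content, 1 collagen was higher in the TG (Col9a1) and 2 in the DRG (Col12a1 and Col5a3), and 2 of the 10 calls remained. In the TruSeq libraries alone, 4 rose in the TG and 1 in the DRG. Leaving out 1 library gave 9 and 2 without TG 1, 2 and 1 without TG 3, 3 and 1 without DRG 1, and 12 and 4 without DRG 2. It gave 2 higher in the TG without TG 2 and 3 without DRG 3, with edgeR calling 0 in the DRG each time, where 2 and 5 had an unadjusted p under 0.05 and DESeq2 called 1 and 2. Without both TG 1 and DRG 2, there were 22 and 6. The replicate number as a block gave 6 and 1. Calls over all genes toward the TG and the DRG, of 18572 to 19341 tested without 1 library, moved as well. There were 2306 and 3619 without TG 1, 209 and 200 without TG 2, and 391 and 454 without TG 3. They were 203 and 385 without DRG 1, 3546 and 3490 without DRG 2, and 253 and 443 without DRG 3. Without both TG 1 and DRG 2 they were 6236 and 5601, and with the GC adjustment 817 and 1373.

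Type IV collagen was higher in the mole TG for the pair of chains found in nearly all basement membranes. Col4a2 stood at 244, 253 and 258 CPM in mole TG 1, 2 and 3 and at 58.4, 72.0 and 87.1 CPM in mole DRG 1, 2 and 3, the library order used throughout. All TG libraries lay above all DRG libraries, and the log2 fold change was 1.80 ± 0.25 (SE; adjusted p = 0.00816). Col4a2 passed with each library left out in turn (adjusted p 0.00907 to 0.0465), but not with the GC adjustment, where its log2 fold change was 0.67 (adjusted p = 0.149).

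Its partner Col4a1 had 84.3, 83.8 and 103 CPM in the TG libraries and 48.2, 50.6 and 52.7 CPM in the DRG libraries. The groups did not overlap, and the log2 fold change was 0.84 ± 0.24 (SE; adjusted p = 0.0387). This call was the closest to the threshold: it passed without TG 1 alone (adjusted p = 0.0401), and was lost without TG 2 (0.137), TG 3 (0.160), DRG 1 (0.145), DRG 2 (0.0565) or DRG 3 (0.135). With the GC adjustment the log2 fold change was -0.05 (adjusted p = 0.914), and the call was also lost with the replicate block (0.0750), in the TruSeq libraries alone (0.0949) and with no filter (0.176).

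Col4a6, a chain of smooth muscle and epithelial basement membranes, was at 16.5, 15.3 and 18.5 CPM in the TG and 3.60, 8.07 and 4.18 CPM in the DRG. No libraries overlapped, and the log2 fold change was 1.67 ± 0.42 (SE; adjusted p = 0.0280). It was lost without TG 2 (adjusted p = 0.0920), TG 3 (0.0900), DRG 1 (0.111) or DRG 3 (0.115), with the GC adjustment (0.0770) and among TruSeq libraries (0.0975).

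Col4a3, Col4a4 and Col4a5, the chains known from the kidney filter, did not pass the test. Col4a3 was at 2.01, 5.74 and 3.73 CPM in the TG and 3.13, 6.71 and 7.91 CPM in the DRG, with a log2 fold change of -0.63 (adjusted p = 0.436). Col4a4 was at 4.95, 12.2 and 11.1 CPM in the TG and 2.94, 7.0 and 3.70 CPM in the DRG, with a log2 fold change of 1.06 (adjusted p = 0.172). Col4a5 was at 5.22, 6.66 and 7.71 CPM in the TG and 4.36, 5.25 and 3.28 CPM in the DRG, with a log2 fold change of 0.61 (adjusted p = 0.305). For all 3 the ganglia overlapped.

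The type IV genes lie in pairs in the mouse genome (GRCm38), and the members of a pair are read away from a shared start region. Col4a1 (chromosome 8, 11198423 to 11312826) and Col4a2 (11312805 to 11449287) overlap slightly at their starts, where reads could count for either gene. Col4a3 and Col4a4 are 71 bases apart on chromosome 1, and Col4a5 and Col4a6 are 1308 bases apart on chromosome X. Ratios of reads within a pair, and the ratios below, are given as a description. How often ratios of other genes separate the groups was not computed. In the mole there were 0.331 to 0.399 Col4a1 reads per Col4a2 read in the TG and 0.605 to 0.825 in the DRG, and 2.29 to 3.15 Col4a6 reads per Col4a5 read in the TG against 0.826 to 1.54 in the DRG, with no overlap in either ratio.

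Col18a1 and Col15a1 encode the closely related basement membrane collagens whose ends are released as endostatin and its near relative. Col18a1 had 274, 295 and 255 CPM in the mole TG and 37.1, 51.5 and 108 CPM in the DRG. Every TG library was above every DRG library, and the log2 fold change was 2.07 ± 0.41 (SE; adjusted p = 0.0157). It was lost without TG 2 (adjusted p = 0.0650), TG 3 (0.0521) or DRG 1 (0.0611), and with the GC adjustment (log2 fold change 0.89, adjusted p = 0.230).

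Col15a1 was at 28.6, 31.5 and 30.8 CPM in the TG and 57.4, 27.3 and 37.8 CPM in the DRG, so the ganglia overlapped, and its log2 fold change was -0.43 (adjusted p = 0.365). There were 8.29 to 9.56 Col18a1 reads per Col15a1 read in the TG libraries and 0.646 to 2.86 in the DRG libraries. Both genes are GC rich in the mouse, at 60.8% for Col18a1 and 56.4% for Col15a1, against a median of 50.9% over the genes tested in the mole.

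Of the collagens higher in the mole TG, Col9a1 and Col9a2 had the largest log2 fold changes. Type IX is a cartilage collagen that decorates type II fibres and is made of the chains of Col9a1, Col9a2 and Col9a3. Col9a1 was at 33.2, 27.5 and 43.8 CPM in the mole TG and 2.09, 6.42 and 2.58 CPM in the DRG. The TG mean was 9.43-fold higher, no libraries overlapped, and the log2 fold change was 3.25 ± 0.51 (SE; adjusted p = 0.00980). Col9a1 passed under all 12 alternative settings tried, GC adjustment included (log2 fold change 3.02, adjusted p = 0.0166), and with each library left out (adjusted p 0.00582 to 0.0487).

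Col9a2 had 13.4, 14.7 and 20.4 CPM in the TG and 0.190, 2.53 and 2.30 CPM in the DRG, where the 0.190 in DRG 1 rested on 2 reads. The ganglia did not overlap, and the log2 fold change was 3.24 ± 0.77 (SE; adjusted p = 0.0244). It was lost without TG 2 (adjusted p = 0.0745), TG 3 (0.0737) or DRG 3 (0.0788), and with the GC adjustment (log2 fold change 1.93, adjusted p = 0.102). Col9a3 was at 7.22, 10.1 and 9.44 CPM in the TG and 0.853, 2.43 and 4.67 CPM in the DRG. These groups did not overlap either, but at a log2 fold change of 1.72 ± 0.62 (SE) the gene failed the test (adjusted p = 0.0775).

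Other cartilage genes were measured beside type IX. Col2a1, the main cartilage fibre chain, was at 7.89, 27.2 and 28.5 CPM in the mole TG and 8.06, 23.8 and 4.42 CPM in the DRG, a log2 fold change of 0.82 (adjusted p = 0.417). Of 14 cartilage and bone markers, 13 were in the table, 10 were tested and edgeR called 0 of these. At an unadjusted p under 0.05, the TG was higher for 3 and the DRG for 1, DESeq2 called 2 and 1, and no marker was at 0 in all libraries. Their summed level was 140 to 191 CPM in the TG and 62.0 to 95 CPM in the DRG, without overlap. Aggrecan (Acan) had 10.7 CPM on average in the TG and 5.30 in the DRG, Comp 8.85 and 16.6, and Matn1 10.9 and 3.20. Matn3, named after its values were seen, ranged from 0.194 to 93.4 CPM between libraries and was not tested. The part of attached cartilage or bone in the type IX values was not tested.

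**Figure D2:**
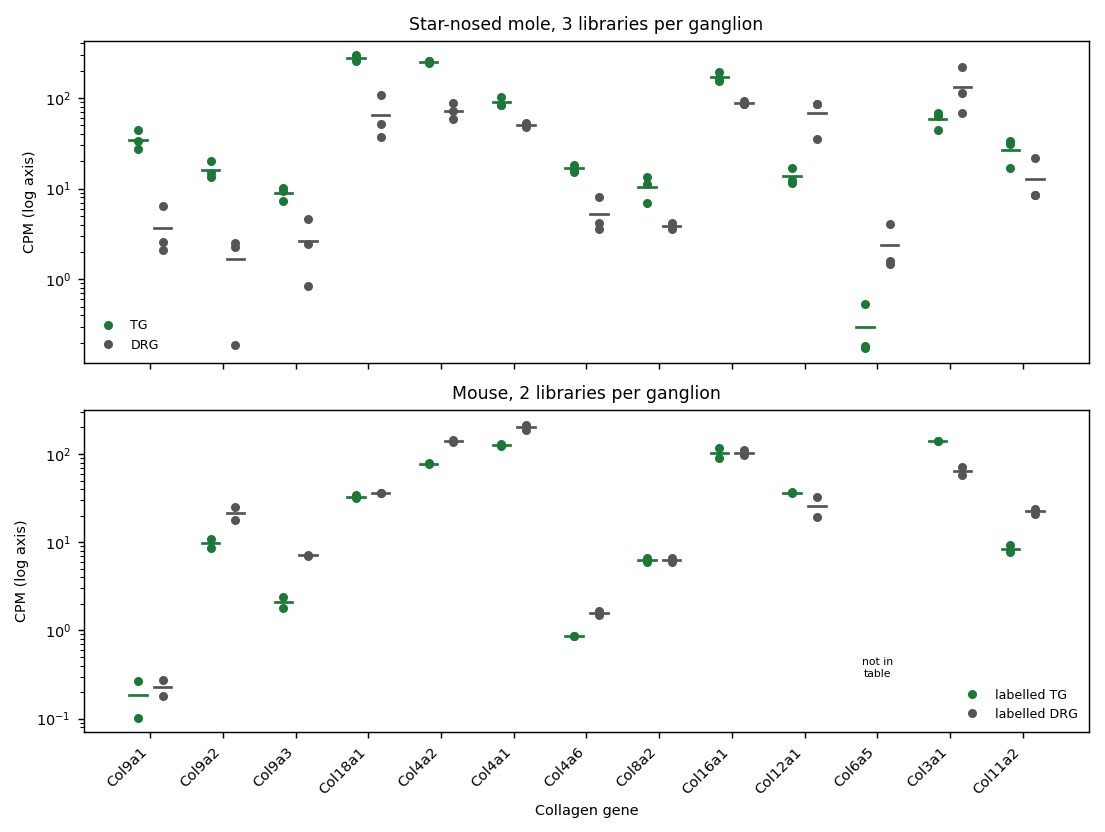
CPM (log axis) of the collagens called in either species and of Col9a3, 1 point per library, with a bar at each group mean; green is TG and grey is DRG, by label in the mouse. In the mole, Col9a1 lies at 27.5 to 43.8 CPM in TG libraries and at 2.09 to 6.42 CPM in DRG libraries, and Col12a1 has the opposite order.

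Col8a2 and Col16a1 completed the genes that were higher in the mole TG and were named after their values were seen. Col8a2, a short chain of vessel and corneal basement membranes, was at 6.96, 11.2 and 13.3 CPM in the TG and 3.70, 4.18 and 3.63 CPM in the DRG (log2 fold change 1.46 ± 0.40 SE, adjusted p = 0.0383). Col16a1, which lies on fibre surfaces, was at 165, 154 and 191 CPM in the TG and 86.4, 93.1 and 85.6 CPM in the DRG (log2 fold change 0.95 ± 0.23 SE, adjusted p = 0.0249). Neither overlapped between ganglia. Both were lost with the replicate block (adjusted p = 0.0684 for Col8a2 and 0.0522 for Col16a1), with no filter, in the TruSeq libraries alone, and without TG 2, TG 3, DRG 1 or DRG 3 (0.100 to 0.145). With the GC adjustment Col8a2 fell to 0.43 and Col16a1 to -0.24 on the log2 scale.

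Col12a1 was the collagen most firmly higher in the mole DRG. It encodes a long chain that sits on type I fibres in tendon, fascia and nerve sheath. It was at 11.6, 12.4 and 16.9 CPM in the TG and 35.5, 86.3 and 85.4 CPM in the DRG. Every DRG library was above every TG library, and the log2 fold change was -2.34 ± 0.41 (SE; adjusted p = 0.0121), a 5.06-fold higher mean. It passed under all 12 alternative settings and was lost only without TG 2 (adjusted p = 0.0623) or DRG 3 (0.0504).

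Col6a5, an alternative chain of type VI collagen, was at 0.535, 0.185 and 0.173 CPM in the mole TG and 1.61, 4.08 and 1.46 CPM in the DRG. These levels rested on 4, 2 and 2 reads in the TG and 17, 42 and 138 reads in the DRG. No libraries overlapped, and the log2 fold change was -3.03 ± 0.82 (SE; adjusted p = 0.0358). The call was lost without TG 2 (0.146), TG 3 (0.130), DRG 1 (0.0876) or DRG 3 (0.0806), with limma-voom (0.0914), the replicate block (0.0540), the GC adjustment (0.0623) or TruSeq libraries only (0.0538). The row under its older name, Col29a1, had 0.134 to 1.17 CPM and was not tested.

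No fibrillar collagen passed the test in the mole (edgeR, 0 of 9), where 2 had an unadjusted p under 0.05, both higher in the DRG, and DESeq2 called 1 of these. Col1a1, the main chain of type I collagen, was at 323, 111 and 85.8 CPM in the mole TG and 73.7, 320 and 35.6 CPM in the DRG. TG 1 and DRG 2, the libraries that stood apart over all genes, were the highest of their groups, and the log2 fold change was 0.28 ± 0.82 (SE; adjusted p = 0.819). Its sign turned in the TruSeq libraries alone (-0.90), with the GC adjustment (-0.41), and without TG 1 (-0.58), DRG 1 (-0.05) or DRG 3 (-0.21).

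Col1a2, its partner chain, was at 148, 93.2 and 117 CPM in the TG and 203, 255 and 86.9 CPM in the DRG (log2 fold change -0.60 ± 0.41 SE, adjusted p = 0.311). Type I collagen protein holds 2 chains of Col1a1 for each of Col1a2. Col1a1 reads per Col1a2 read were 2.18, 1.19 and 0.731 in TG 1, 2 and 3 and 0.363, 1.26 and 0.410 in the DRG. These read ratios are not corrected for transcript length and do not measure the chains of the protein. Col3a1, the fibre of soft tissue and vessel walls, was at 62.6, 44.6 and 68.5 CPM in the TG and 113, 220 and 67.8 CPM in the DRG. Its ganglia overlapped by the value in DRG 3 and TG 3, and the log2 fold change was -1.19 ± 0.44 (SE; adjusted p = 0.0861).

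Type V collagen sets the width of type I fibres. Col5a3 was abundant in both ganglia, at 377, 367 and 394 CPM in the TG and 598, 322 and 463 CPM in the DRG (log2 fold change -0.28, adjusted p = 0.488). It is GC rich (61.6% in the mouse), and with the GC adjustment its log2 fold change was -1.53 (adjusted p = 0.0385). Col5a1 was at 76.5, 83.8 and 91.3 CPM in the TG and 29.9, 73.3 and 53.4 CPM in the DRG, without overlap and with a log2 fold change of 0.69 (adjusted p = 0.183).

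Col5a2 had 35.6, 28.1 and 44.9 CPM in the TG and 68.1, 43.1 and 49.4 CPM in the DRG, which overlapped (log2 fold change -0.56, adjusted p = 0.211). The ratio of the chains separated the ganglia, with 2.04 to 2.98 Col5a1 reads per Col5a2 read in the TG and 0.439 to 1.70 in the DRG. Mouse Col5a1 is GC rich and Col5a2 is not, at 58.0% against 49.6%.

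Type XI collagen is the cartilage relative of type V. Col11a1 was at 9.77, 8.70 and 12.0 CPM in the mole TG and 14.4, 23.8 and 15.8 CPM in the DRG, without overlap (log2 fold change -0.82, adjusted p = 0.12). Col11a2 was at 17.0, 30.7 and 33.2 CPM in the TG and 8.44, 21.7 and 8.44 CPM in the DRG, where DRG 2 overlapped TG 1 (log2 fold change 1.08, adjusted p = 0.139). The 2 chains thus had fold changes of opposite sign, neither past the test, and their mouse GC contents are 48.0% and 62.9%. Under other settings fibrillar calls went both ways. Col11a2 was called higher in the TG with limma-voom and without DRG 2, and with Col2a1 and Col5a1 without TG 1 and DRG 2. Col3a1 was called higher in the DRG with DESeq2 and with no filter, and Col5a3 with the GC adjustment, where Col11a2 turned to -0.20.

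Type VI collagen, the microfilament that surrounds cells and is secreted by fibroblasts and Schwann cells in nerve, was abundant. Col6a1 was at 254, 214 and 207 CPM in the TG and 96.1, 139 and 146 CPM in the DRG. The ganglia did not overlap, but the log2 fold change of 0.83 ± 0.26 (SE) narrowly missed the threshold (adjusted p = 0.0534), and DESeq2 called it. Col6a2 was at 592, 442 and 356 CPM in the TG and 181, 296 and 371 CPM in the DRG (log2 fold change 0.72, adjusted p = 0.156), and Col6a3 at 34.4, 29.0 and 39.3 CPM against 19.5, 29.6 and 34.7 CPM (0.30, adjusted p = 0.507).

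Col28a1, a type VI relative found around Schwann cells, was at 72.5, 56.9 and 56.2 CPM in the TG and 124, 53.9 and 72.2 CPM in the DRG, with a log2 fold change of -0.42 (adjusted p = 0.395). Col14a1, which binds type I fibres as Col12a1 does, was at 21.0, 18.8 and 29.5 CPM in the TG and 59.7, 26.3 and 52.8 CPM in the DRG (-1.0, adjusted p = 0.0908). The ganglia overlapped for both, by DRG 2 for Col14a1 and by DRG 2 and 3 for Col28a1.

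The collagens of skin anchorage were low. Col17a1, the hemidesmosome collagen of keratinocytes, was at 13.9, 7.86 and 7.71 CPM in the TG and 0.379, 5.93 and 1.18 CPM in the DRG. The ganglia did not overlap, but at a log2 fold change of 2.0 ± 0.89 (SE) the gene failed the test (adjusted p = 0.138). Col7a1, the anchoring fibril, was at 18.5, 12.9 and 19.2 CPM in the TG and 6.83, 18 and 6.05 CPM in the DRG (log2 fold change 0.72, adjusted p = 0.307). Surface epithelium markers, of which 5 of 11 tested were higher in the TG and none was at 0 in all libraries, summed to 1545 CPM in TG 1, 76.4 and 69.6 CPM in TG 2 and 3, and 22.4 to 38.3 CPM in the DRG. Their part in the Col17a1 values was not tested.

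The remaining mole collagens were mostly sparse. Col10a1, of growth plate cartilage, was at 6.48 to 12.2 CPM in the TG and 0.678 to 3.99 CPM in the DRG (log2 fold change 2.36, adjusted p = 0.0596). Col8a1, Col13a1, Col19a1, Col20a1, Col21a1, Col22a1, Col23a1, Col24a1, Col25a1, Col27a1 and Col6a6 did not pass, with ganglia that overlapped for each. Within the DRG the highest library was more than 3 times the lowest for 14 of the 43 collagens tested, against 7 within the TG, and the median ratio of highest to lowest was 2.43 in the DRG and 1.60 in the TG.

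The same comparison in the mouse asked whether the ganglia, as labelled, differ in collagen expression in a species without a star. Few collagens passed: Col3a1 was higher in labelled TG, and Col11a2, Col4a2 and Col9a3 in labelled DRG. These are 1 (2.38%) and 3 (7.14%) of 42 collagens tested, against 1.12% and 1.21% of all 21394 genes tested and 2.33% in both directions. The median log2 fold change was -0.16 over the collagens and -0.02 over all genes. By class the medians were -0.45 for 9 fibrillar, -0.57 for 6 type IV and -0.09 for 27 other collagens.

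Both labelled TG libraries lay above both labelled DRG libraries for 7 of 42 collagens, against 24.2% of all genes, and below them for 19, against 23.9%. The calls rested on few animals, and the number of calls over all genes also changed with the library left out. Without labelled TG 1 or labelled TG 2 no collagen was called by edgeR. At an unadjusted p under 0.05 there were 3 higher in labelled TG and 6 in labelled DRG without labelled TG 1, and 4 and 7 without labelled TG 2, and DESeq2 called 0 and 1, and 1 and 1. With edgeR, without labelled DRG 1 there were 7 and 11, and without labelled DRG 2 there were 4 and 12, where the lone library is assumed to vary as the others do. DESeq2 called 4 and 8, and edgeR with no filter 2 and 6. With the GC adjustment there were 2 and 2, and 1 of the 4 calls remained.

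Col3a1 was the one mouse collagen higher in labelled TG, at 140 and 139 CPM in labelled TG 1 and 2 and 71.4 and 57.5 CPM in labelled DRG 1 and 2. The groups did not overlap, and the log2 fold change was 1.11 ± 0.15 (SE; adjusted p = 0.0260), a 2.16-fold higher mean. It passed under all alternatives but the loss of labelled TG 1 (0.220) or labelled TG 2 (0.218). Its neighbours on fibres did not share that direction. Col1a1 was at 103 and 78.1 CPM against 125 and 103 CPM (log2 fold change -0.33, adjusted p = 0.434), and Col1a2 at 194 and 198 CPM against 304 and 267 CPM (-0.54, adjusted p = 0.0971).

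There were thus 0.701 and 0.721 Col3a1 reads per Col1a2 read in labelled TG and 0.216 and 0.235 in labelled DRG, without overlap, while in the mole the ranges of 0.422 to 0.584 in the TG and 0.556 to 0.866 in the DRG overlapped. Col5a2, which lies 24614 bases from Col3a1 on mouse chromosome 1 with no gene between that encodes a protein, was at 54.0 and 50.8 CPM against 86.1 and 67.3 CPM (-0.55, adjusted p = 0.169). Col5a1 and Col5a3 had log2 fold changes of -0.52 and -0.45 (adjusted p = 0.147 and 0.192), and Col2a1, at 3.16 to 4.78 CPM, of -0.02 (adjusted p = 0.984).

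Col11a2 was higher in labelled DRG, at 21.0 and 23.9 CPM, against 9.19 and 7.66 CPM in labelled TG. Its log2 fold change was -1.41 ± 0.20 (SE; adjusted p = 0.030), without overlap, while Col11a1 was at 71.9 and 67.7 CPM in labelled TG and 52.7 and 34.4 CPM in labelled DRG (0.68, adjusted p = 0.196). Col9a3 was at 1.78 and 2.41 CPM in labelled TG and 7.16 and 7.06 CPM in labelled DRG, a log2 fold change of -1.76 ± 0.28 (SE; adjusted p = 0.0367). Both calls were lost without labelled TG 1 (adjusted p = 0.246 for Col11a2 and 0.367 for Col9a3) or labelled TG 2 (0.358 and 0.225), and with the GC adjustment (0.0953 and 0.0561).

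Of the other type IX chains, Col9a2 was at 11 and 8.52 CPM in labelled TG and 18 and 25.1 CPM in labelled DRG (-1.14, adjusted p = 0.0804). Col9a1 was nearly absent, at 0.268 and 0.103 CPM against 0.275 and 0.183 CPM. Mouse libraries had 41.1 to 138 Col9a2 reads per Col9a1 read. In the mole there were 0.0909 to 0.889 such reads, so Col9a1 had more reads than Col9a2 in every mole library and fewer in every mouse library. Mole reads were aligned to transcripts of other species, so these counts do not compare levels between species. Cartilage and bone markers summed to 60.1 to 63.8 CPM in labelled TG and 68.3 to 68.6 CPM in labelled DRG, and edgeR called 0 of 11 tested, with 1 and 6 at an unadjusted p under 0.05 and 1 and 3 by DESeq2.

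Of the mouse type IV chains, Col4a2 was higher in labelled DRG. It was at 76.2 and 78.3 CPM in labelled TG and 136 and 145 CPM in labelled DRG, without overlap, and passed with a log2 fold change of -0.86 ± 0.12 (SE; adjusted p = 0.030). It was lost without labelled TG 1 (0.424) or labelled TG 2 (0.397) and with the GC adjustment (log2 fold change -0.52, adjusted p = 0.161). Col4a1 was at 129 and 123 CPM against 186 and 215 CPM, without overlap, and did not pass (-0.67, adjusted p = 0.0624). Col4a6 was at 0.867 and 0.870 CPM against 1.48 and 1.64 CPM (-0.85, adjusted p = 0.334), and Col4a3, Col4a4 and Col4a5 had log2 fold changes of 0.08, 0.12 and -0.46 (adjusted p = 0.918, 0.897 and 0.402).

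Col18a1 and Col15a1, whose ratio separated the ganglia of the mole, did not pass the test in the mouse. Their ratio also separated the mouse groups, with 0.530 to 0.559 Col18a1 reads per Col15a1 read in labelled TG and 0.597 to 0.743 in labelled DRG. Col18a1 was at 34.0 and 31.6 CPM in labelled TG and 35.9 and 36.4 CPM in labelled DRG (-0.14, adjusted p = 0.702), and Col15a1 at 64.2 and 56.6 CPM against 60.1 and 49.0 CPM (0.15, adjusted p = 0.718). Col12a1 was at 37.0 and 36.0 CPM against 32.6 and 19.4 CPM (0.49, adjusted p = 0.417). Col14a1 was at 22.3 and 25.4 CPM against 43.9 and 35.8 CPM, without overlap (-0.74, adjusted p = 0.105).

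For type VI collagen, mouse Col6a1 was at 48.3 and 46.5 CPM in labelled TG and 31.8 and 23.1 CPM in labelled DRG (0.79, adjusted p = 0.109), and Col6a2 at 53.8 and 48.3 CPM against 35.8 and 34.7 CPM (0.54, adjusted p = 0.139). Neither overlapped and neither passed. Col6a3, at 39.9 and 36.5 CPM against 50.0 and 37.1 CPM, overlapped (-0.19, adjusted p = 0.680). There were 1.21 and 1.27 Col6a1 reads per Col6a3 read in labelled TG and 0.622 and 0.636 in labelled DRG. Col28a1 had 84.8 to 98.5 CPM in the 4 libraries, with a log2 fold change of -0.01, Col7a1 17.4 to 25.7 CPM, and Col17a1 0.0709 to 0.267 CPM.

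**Figure D3:**
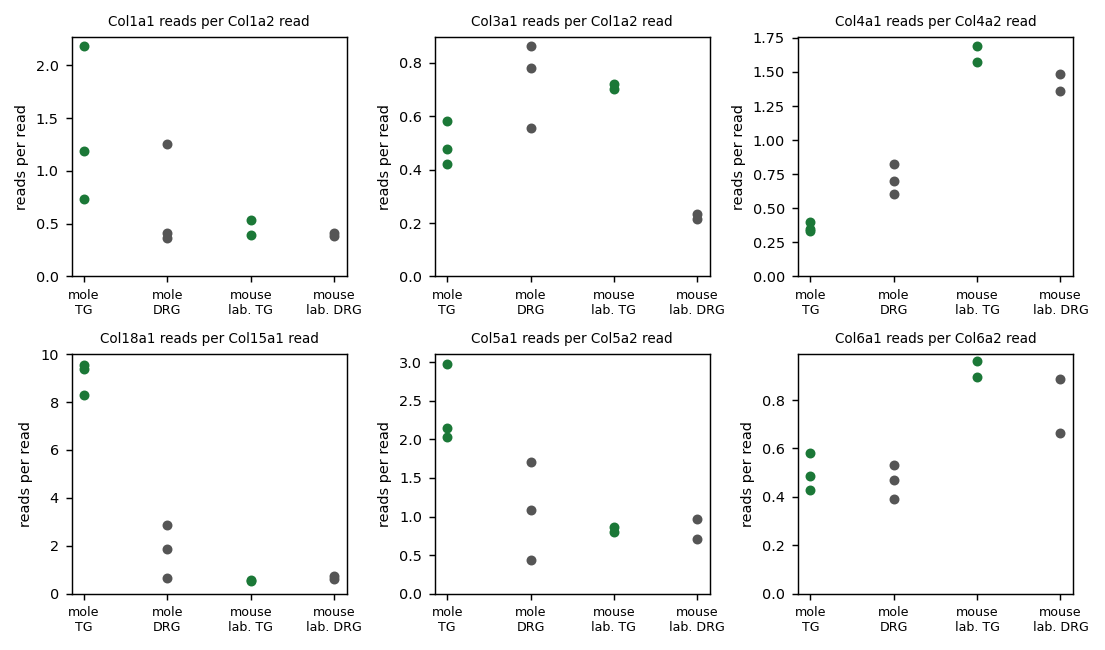
Ratio of the read counts of 2 collagen genes in each library (1 point per library, axis from 0), for mole TG, mole DRG and the mouse groups as labelled. Mole TG libraries lie below mole DRG libraries for Col4a1 per Col4a2 read (0.331 to 0.399 against 0.605 to 0.825). They lie above them for Col18a1 per Col15a1 read (8.29 to 9.56 against 0.646 to 2.86). Mouse groups separate for these ratios too, at 1.57 to 1.69 in labelled TG against 1.36 to 1.49 in labelled DRG for the first. For the next they are at 0.530 to 0.559 against 0.597 to 0.743, and they also separate for Col3a1 per Col1a2 read. With 2 libraries per mouse group, separation was also common among single genes.

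An interaction term, fitted over 21580 genes in all 10 libraries, asked whether moles and mice differed in the contrast of the ganglia as labelled. Of 42 collagens, 10 (23.8%) had an interaction, against 17.0% of all genes. For 7 of them the TG over DRG difference was more positive in the mole, and for 3 it was more negative. The 7 were type IX chains (Col9a1, Col9a2, Col9a3), type IV chains (Col4a2, Col4a6), Col18a1 and Col11a2, and the 3 were Col12a1, Col3a1 and Col11a1. Since the Hox genes ran against the mouse labels, a swap of those labels would change the sign of every mouse fold change, and these interactions hold only for the labels as deposited. With the sign of the mouse contrast turned, 1565 genes and 2 collagens had an interaction, Col12a1 (-2.15, adjusted p = 0.0446) and Col14a1, both more negative in the mole, and the other 9 were lost.

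Col4a2 had the smallest adjusted p of the collagens, with an interaction of 2.20 ± 0.35 on the log2 scale (SE; adjusted p = 0.00364), and was the one gene called in both species, higher in the TG of the mole and in labelled DRG of the mouse. No collagen (edgeR, 0 of 41 tested in both) was called in the same direction in both, against 2 at an unadjusted p under 0.05 (Col14a1 and Col6a1) and 1 with DESeq2 (Col6a1). Called in opposite directions were Col4a2 with edgeR, 6 at an unadjusted p under 0.05 and 5 with DESeq2. With the sign of the mouse contrast turned, the counts of same and opposite directions would change places. The share of all genes called in both species was not computed, so these counts cannot set the collagens apart. The number of interactions called over all genes changed with the library left out, and so did that of the collagens. Col12a1 (-3.28 ± 0.57 SE, adjusted p = 0.00502) and Col4a2 kept the call with each of the 10 libraries left out, while the count of collagens called ranged from 2 to 14. It was 2 without labelled TG 2 or labelled DRG 2, 4 without labelled TG 1, 5 without labelled DRG 1, 6 without mole TG 2 or 3, 7 without mole DRG 1, 10 without mole DRG 3, 11 without mole TG 1 and 14 without mole DRG 2.

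The scaling of libraries moved these values as a whole. The median interaction over all genes was -0.16 with the factors used here (TMM) and 0.31 with another scaling (RLE), and 25.8% of the genes called were positive with the first and 48.1% with the second. Under RLE 11 collagens were called, 8 positive and 3 negative, and all 10 named above were among them with the same sign.

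**Figure D4:**
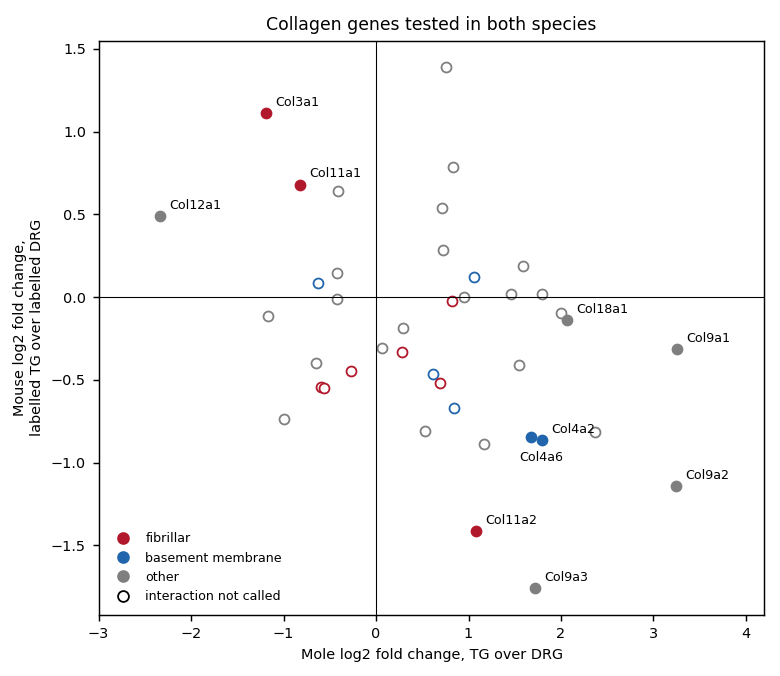
Log2 fold change of TG over DRG in the mole (horizontal axis) and of labelled TG over labelled DRG in the mouse (vertical axis) for the 41 collagens tested in both, coloured by class. The 10 filled and named genes had an interaction between ganglion and species, and 7 of them lie at the lower right and 3 at the upper left.

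Other matrix genes were read from lists chosen beside the collagens. Over all genes tested, 10.5% were called toward the TG and 12.9% toward the DRG in the mole, and 1.12% and 1.21% in the mouse, and no list here was tested against those shares. Of 25 genes for collagen synthesis and assembly, which hydroxylate, fold, trim and cross-link the chains, 6 (24%) rose in the mole TG and 1 (4%) in the mole DRG, with a median log2 fold change of 0.49. Their summed level was 1659 to 2160 CPM in the TG and 1011 to 1209 CPM in the DRG. Of the first genes of that list, the prolyl hydroxylase subunits P4ha1 and P4ha2 had log2 fold changes of -1.04 and -0.66 (adjusted p = 0.127 and 0.0965), and the hydroxylase Lepre1 was higher in the TG (1.35, adjusted p = 0.0206). In the mouse edgeR called 0 of 25, with a median of -0.13, while 6 were higher in labelled DRG at an unadjusted p under 0.05 and DESeq2 called 1 of them.

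Partners in the basement membrane were counted next. Of 16 laminin, nidogen and proteoglycan genes, 2 (12.5%) rose in the mole TG and 1 (6.25%) in the mole DRG, near the shares over all genes, with a median log2 fold change of 0.29. The laminin chains Lama1, Lama2 and Lama3 had log2 fold changes of 0.48, -0.72 and -0.65, none past the test. Perlecan (Hspg2), named here after its values were seen because it was called in both species, rose in the mole TG (1.20, adjusted p = 0.0346) and in labelled DRG of the mouse (-1.11, adjusted p = 0.0160), the directions of Col4a2. In the mouse 2 of 16 were higher in labelled DRG, with a median of -0.55.

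Genes of the interstitial matrix, which holds fibrillar collagens, had a median of -0.03 in the mole, with 1 gene of 19 tested (5.26%) called toward the TG and 4 (21.1%) toward the DRG. Decorin (Dcn), which coats fibres, had a log2 fold change of -0.51 (adjusted p = 0.224) and biglycan (Bgn) of 0.70 (0.218), while lumican (Lum) was higher in the DRG (-1.51, adjusted p = 0.0183). In the mouse 3 of 20 were higher in labelled DRG, with a median of -0.16. Collagen receptors had 1 of 10 called in each direction in the mole. In the mouse edgeR and DESeq2 called 0 of 9, with 1 at an unadjusted p under 0.05. Collagen breakdown genes had 1 of 13 called toward the mole TG and 2 toward the DRG, and 1 of 14 higher in labelled DRG in the mouse.

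Markers of several cell types also differed between the ganglia. Of 16 sensory neuron markers, 5 were higher in the mole DRG (Scn10a, Scn9a, Ntrk2, Calca and Snap25, named after their values were seen) and the median log2 fold change was -0.55, with overlapping sums, and in the mouse 1 was higher in labelled TG. Schwann cell and myelin markers were higher in the mole TG for 7 of 12, with sums of 9898 to 11274 CPM in the TG and 1831 to 3685 CPM in the DRG. In the mouse 8 of 12 were higher in labelled DRG, with sums of 4870 to 4891 CPM in labelled TG and 11366 to 14758 CPM in labelled DRG. The median log2 fold change of type IV collagen, which Schwann cells and vessels both lay down, had the same direction as these markers in each species (0.95 and -0.57). Not every chain did: Col4a3 had the other sign in the mole (-0.63), as did Col4a3 and Col4a4 in the mouse (0.08 and 0.12), none past the test. The medians of several other marker lists were also positive in the mole and negative in the mouse. They were those of macrophage (1.45 and -0.96), central nervous system (2.31 and -2.68), and endothelial and mural markers (0.29 and -0.17). Cartilage and bone (1.04 and -0.62) and surface epithelium (4.17 and -0.13) had the same signs, which are thus not particular to Schwann cell markers. Fibroblast, skeletal muscle, sensory neuron and satellite glia lists did not. The type IV calls of both species were lost with the GC adjustment. The part of Schwann cells and vessels in the type IV values was not tested.

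Markers of fibroblasts, the main source of fibrillar collagen, gave 1 of 11 higher in the mole TG, with sums of 1545 to 1784 CPM in the TG and 1823 to 2598 CPM in the DRG. Thy1, which neurons also express, made up much of these sums, at a mean of 596 CPM in the TG and 1194 CPM in the DRG, and without it the sums overlapped at 992 to 1163 CPM and 736 to 1126 CPM. In the mouse 2 of 11 were higher in labelled TG. Mouse sums overlapped, and without Thy1 they were 562 to 601 CPM in labelled TG and 396 to 491 CPM in labelled DRG. Endothelial and mural markers gave 1 of 14 in each direction in the mole, with overlapping sums, while in the mouse edgeR called 0 of 14, DESeq2 3 higher in labelled TG and 1 in labelled DRG, as at an unadjusted p under 0.05. Of 12 markers of skeletal muscle, 8 were higher in the mole TG, with sums of 1649 to 4067 CPM against 708 to 1200 CPM, and 7 in labelled TG of the mouse, with sums of 83.3 to 116 CPM against 32.4 to 62.2 CPM.

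Macrophage markers were higher in the mole TG for 4 of 9 tested, with sums of 253 to 384 CPM against 73.5 to 102 CPM in the DRG, and central nervous system markers for 6 of 9, with 1 higher in the DRG. In the mouse edgeR called 0 of 10 macrophage markers, against 5 higher in labelled DRG at an unadjusted p under 0.05 and 4 with DESeq2, and 4 of 10 central nervous system markers were higher in labelled DRG. Satellite and non-myelinating glia markers gave 2 of 10 called toward the mole TG and 1 toward the DRG, and 1 of 10 higher in labelled DRG of the mouse. None of the markers in these lists was at 0 in all libraries of a species. The part of these cells in the collagen values was not tested.

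GC content moved with the fold changes of the collagens as it did over all genes. Collagens are rich in glycine and proline, whose codons hold G and C, and their mouse transcripts had a median GC content of 55.4% (45.9% to 62.9%), against 50.9% over the genes tested in the mole. Across 42 collagens the mole log2 fold change and GC content had a correlation of 0.434, and across 13447 genes of 0.528. In the mouse the correlations were -0.379 across 42 collagens and -0.210 across 15511 genes. All points of a species share the same libraries, so these describe the libraries and have no p.

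**Figure D5:**
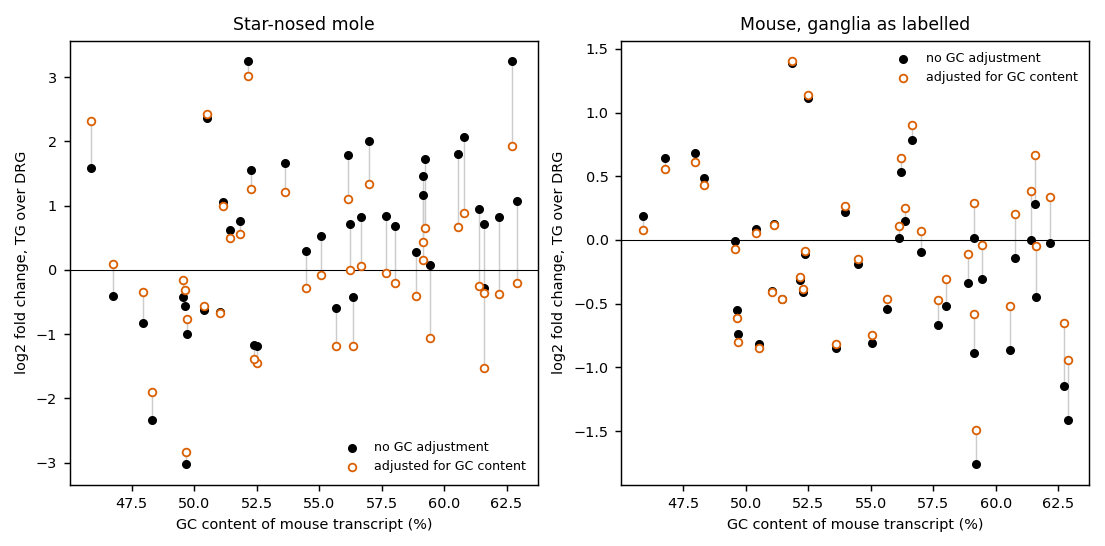
Log2 fold change of each collagen, TG over DRG (by label in the mouse), against the GC content of its mouse transcript, before (black) and after (open orange) adjustment for GC content, with a line joining the values of a gene. In the mole the GC-rich collagens move down and 11 of the 43 collagens tested cross 0, of which Col8a1 (46.8% GC) crosses upward. Col9a1 moves from 3.25 to 3.02 and Col12a1 from -2.34 to -1.90. Col21a1, which has no mouse GC value, is not drawn.

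In the mole the adjustment lowered the median collagen log2 fold change from 0.72 to -0.16, that of fibrillar genes from -0.28 to -0.37 and that of type IV genes from 0.95 to 0.59. Col9a1 and Col12a1, at 52.2% and 48.3% GC, were the calls that remained. In the mouse the medians went from -0.16 to -0.06 over all collagens and from -0.57 to -0.47 over type IV, and Col3a1, at 52.5% GC, was the call that remained.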

How the data were processed

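Poly-A RNA of whole ganglia was sequenced by the authors, and the values they deposited are gene-level read counts. Per the study's methods, mole reads were aligned with Stampy to transcripts of human, of dog if unmapped, and last of mouse, and summed over homologs, and mouse reads to mouse transcripts. Collagen chains share repeats, and how far reads were assigned to a related chain was not tested. DESeq is named in the submitters' notes, and the gene lists that hold the authors' own calls were not used.

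Members and lists were chosen with earlier results of these data known. Counts were fitted in R 4.3.3 with edgeR 4.0.16 (filterByExpr with a minimum count of 10, TMM factors, glmQLFit and glmQLFTest) over all genes of a species, and a gene was called at a Benjamini-Hochberg adjusted p under 0.05. The interaction used the symbols in both tables. CPM use TMM factors. DESeq2 1.42.0 and limma 3.58.1 (voom) were alternatives. GC adjustment used offsets from a loess (span 0.3) on the longest coding mouse transcript of the symbol (mouse GRCm38, GENCODE M21), used for the mole as well, which exists for 43 of 45 collagens. Deviations of mole TG and DRG libraries with the same number correlated at 0.372, 0.490 and -0.169. These values cannot say whether replicate numbers pair animals, and the main fit paired no libraries. Other scalings and filters, kit, thinned counts and left-out libraries were tried as well. Genes described library by library were 26 fixed by their role and, per species and direction, up to 5 called with the largest change. Lists gave their first 3 genes, and exceptions are named in the text.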

Additional observations from a re-analysis of the deposited data

Results flagged for a closer look

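For 10 collagens the difference between TG and DRG, as labelled, was not the same in both species by the interaction term, given as the mole log2 fold change minus that of the mouse in 1 edgeR fit. More positive in the mole were Col9a2 (3.91 ± 0.90 SE, adjusted p = 0.0146), Col9a1 (3.15 ± 0.79 SE, adjusted p = 0.0208) and Col9a3 (3.00 ± 0.83 SE, adjusted p = 0.0303). The basement membrane genes Col4a2 (2.20, adjusted p = 0.00364), Col4a6 (2.07, adjusted p = 0.0334) and Col18a1 (1.74, adjusted p = 0.0499) and the fibrillar gene Col11a2 (2.04, adjusted p = 0.0430) had the same sign. More negative in the mole were Col12a1 (-3.28, adjusted p = 0.00502), Col3a1 (-2.74, adjusted p = 0.0113) and Col11a1 (-1.95, adjusted p = 0.0152).

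Col4a2 and Col12a1 passed with each library left out. Col9a1 and Col3a1 failed without labelled TG 2 or labelled DRG 2 of the mouse, Col9a1 also without labelled DRG 1. The others were less firm. With mole libraries left out, Col18a1 was lost without TG 2, TG 3, DRG 1 or DRG 2. Col11a2 was lost without TG 2, TG 3, DRG 1 or DRG 3. Col4a6 was lost without TG 2, TG 3 or DRG 1, and Col9a3 without TG 2 or TG 3. Col9a2 and Col11a1 kept the call without any 1 mole library. Each of these genes was also lost without some mouse libraries, where a group is left with 1 library. Col18a1 was also lost with no filter and without the 2 Genomic Sample Prep libraries, and Col4a6 with the replicate block. All hold for the mouse labels as deposited, which the Hox genes run against, and with the sign of the mouse contrast turned Col12a1 alone of the 10 passed (-2.15, adjusted p = 0.0446). No GC adjustment was made in this fit, so the part of GC content was not tested. Mouse Col9a1 had at most 0.275 CPM in any library. The separate fits of each species gave 1.80 and -0.86 for Col4a2, which are further apart than the 2.20 of the joint fit of all 10 libraries. For the 3 negative interactions the separate fits were closer together than the joint values. They gave -2.34 and 0.49 for Col12a1, -1.19 and 1.11 for Col3a1, and -0.82 and 0.68 for Col11a1. With RLE factors the joint values were 2.67 for Col4a2, -2.82 for Col12a1, -2.31 for Col3a1 and -1.50 for Col11a1, so their size depended on the scaling.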

How the results depend on the processing

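Of 10 mole calls, Col9a1 and Col12a1 held under all 12 alternative settings that left out no single library. The other 8 calls were lost with the GC adjustment, which gave 2190 calls over all genes, 1897 with the replicate block as well, against 4240 with edgeR as reported, with 1 collagen higher in the TG each time. Collagens higher in TG and DRG were 14 and 1 with limma-voom, 5 and 3 with no filter, 6 and 1 with the replicate block, 4 and 1 in the TruSeq libraries alone, and 22 and 6 of 11837 calls without mole TG 1 and DRG 2. In the mouse they were 4 and 8 of 1798 with DESeq2 (498 with edgeR), 2 and 6 of 846 with no filter, 2 and 3 with upper-quartile factors or the replicate block, 2 and 2 of 784 with the GC adjustment, and 2 and 0 with the block added. The crossed pairing of mouse numbers, chosen after seeing the data since same-numbered deviations correlated at -0.128, gave 5 and 11 of 2283. The interaction gave 5513 calls with DESeq2 against 3671, and 1565 calls with 2 collagens when the sign of the mouse contrast was turned, a choice made after seeing the data, where Col9a3 was -0.36 and Col11a2 -0.62. The replicate block gave 3612 calls in the mole, 556 in the mouse and 3130 interactions. In the mole, deviations of TG 1 and TG 2 correlated best with the DRG library of the same number, and those of TG 3 with DRG 2 (0.288). These values cannot say whether replicate numbers pair animals. The cause was not tested. Without 1 library each, calls ranged from 409 to 7036 in the mole, 37 to 4905 in the mouse and 759 to 6354 for the interaction. Collagens ranged from 2 to 12 higher in the mole TG, 0 to 4 in the DRG, 0 to 7 and 0 to 12 in mouse labelled TG and DRG, and 2 to 14 with an interaction. Upper-quartile factors moved the mole median over all genes from 0.11 to 0.25, and the TG share of mole calls went from 44.8% to 50.2%, to 31.8% in the TruSeq libraries and to 33.6% with no filter.

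With the GC adjustment, and then with the block added, mole log2 fold changes turned to -0.20 and -0.17 for Col11a2, -0.24 and -0.25 for Col16a1, -0.41 and -0.30 for Col1a1, -0.37 and -0.31 for Col2a1, -0.0457 and -0.0429 for Col4a1, -0.20 and -0.14 for Col5a1, -0.28 and -0.24 for Col6a3, and -0.36 and -0.32 for Col7a1. Col23a1 turned to -0.0753, Col27a1 to -1.06 and Col8a1 to 0.0944 with the GC adjustment. Col1a1 was -0.90 in the TruSeq libraries and -0.58 to 1.57 with 1 library left out. In the mouse, Col18a1 turned to 0.21 and 0.23, Col2a1 to 0.33 and 0.42 and Col17a1 to 0.0718 with the GC adjustment, Col28a1 to 0.0255 and Col2a1 to 0.0082 with upper-quartile factors, and Col28a1 to 0.00356 with no filter. Without 1 library, mouse values were -1.33 to 0.56 for Col17a1, -0.11 to 0.10 for Col28a1, -0.34 to 0.26 for Col2a1, -1.14 to 0.24 for Col9a1, -0.39 to 0.0435 for Col6a3, -0.18 to 0.41 for Col4a3 and -0.23 to 0.60 for Col4a4. At these depths the lowest collagens rest on few reads per mole library, and with 2 or 3 animals per group a p over the threshold does not show that levels were equal.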

Other observations

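The Col9a1 gene lies 9205 bases from Col19a1 on mouse chromosome 1 (GRCm38), with their ends facing and no protein-coding gene between them. Col19a1, a minor collagen that neurons also make, was named after its values were seen. It was at 14.5 and 11.5 CPM in mouse labelled TG and 5.62 and 4.27 CPM in labelled DRG, without overlap (log2 fold change 1.39, adjusted p = 0.0534 with edgeR). It passed with DESeq2, upper-quartile factors, no filter, the replicate block, the GC adjustment (adjusted p = 0.0366) and that with the block, with the crossed numbers as a block, and without labelled DRG 1 or labelled DRG 2. Mouse Col9a1 was at 0.103 to 0.275 CPM. In the mole Col9a1 was at 27.5 to 43.8 CPM in the TG and Col19a1 at 1.47 to 3.15 CPM.

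Col23a1, a membrane-spanning collagen named after its values were seen, was at 49.0 and 43.7 CPM in mouse labelled TG and 72.3 and 90.2 CPM in labelled DRG (log2 fold change -0.81, adjusted p = 0.0694 with edgeR). It passed with DESeq2, with no filter, with the GC adjustment, with the crossed numbers as a block, and without labelled DRG 1 or labelled DRG 2.

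The chains of type V collagen did not keep 1 ratio of reads across the mole libraries. There were 4.32 to 4.93 Col5a3 reads per Col5a1 read in the TG libraries and 20.0, 4.39 and 8.66 in DRG 1, 2 and 3. The mouse libraries had 4.2 to 4.62, given as a description of that species alone, since mole reads were aligned to transcripts of other species.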
